A study of Mus musculus with 4 samples.

Results

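Interferon-stimulated and antigen presentation genes were described across 4 RNA-seq libraries of mouse keratinocytes. The members were chosen by name as a list of 46 genes of interferon signalling, antiviral defence and peptide presentation. A row was found for 42 of them among the 13102 genes of the tables, and Dhx58, Oasl2, Rsad2 and Usp18 were not analysed here. Every gene of the tables was above 1 CPM, a count scaled to its library total, in at least 2 libraries. Of the 42 members, 41 averaged 1 CPM or more across the libraries and entered the comparisons, among 12934 genes in all. Oas1a was under that level.

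The cells were primary epidermal keratinocytes of neonatal C57BL/6 mice, cultured for 48 h, and the series is about IL-17RD as a receptor for interleukin-17A (IL-17A) in skin inflammation. One group was wild-type (WT) cells without the cytokine. The other 3 groups were given IL-17A at 100 ng/mL for 8 h and were WT cells, cells lacking Il17rc (Il17rc KO, a knockout) and cells lacking Il17rd (Il17rd KO). Each group had 1 library, and how many mice it came from, and of which sex, is not given in the labels. No comparison therefore has a replicate check, no p-value was computed, and a difference describes 2 libraries and not 2 conditions. Knockout cells without the cytokine were not analysed here. A difference between genotypes at rest and a difference in their response therefore cannot be told apart.

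Interferons bind paired receptor chains that signal through the kinases JAK1 and TYK2 or JAK2. Type I interferons activate a complex that contains STAT2 and IRF9 and binds the interferon-stimulated response element (ISRE) in front of antiviral genes, while interferon gamma induces the factor IRF1. IRF1 is known to raise the genes that cut, transport and load peptides on MHC class I. In the epidermis keratinocytes both respond to interferons and can present antigen.

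Total counts lay between 19711866 and 19904695. Levels are CPM relative to library sizes scaled by TMM, and a gene is called higher or lower at 2-fold or more when the exact 95% counting interval of the ratio, given in parentheses, excludes 1. That interval covers counting error only. Il17rd had 252 counts in untreated WT and 265 in IL-17A WT, with 150 in Il17rc KO and 5 in Il17rd KO cells. Il17rc had 2729, 1152, 439 and 1718 counts in that order, so its transcript was still counted in its own knockout. Keratinocyte markers Krt5 and Krt14 were abundant in all 4 libraries, at 195461 counts or more. The 12 keratinocyte markers summed to 52102, 36735, 38658 and 42752 CPM. In IL-17A WT 5 of them (Perp, Krt10, Krt15, Krt1 and Col17a1) were called lower than without the cytokine, beside 10.7% of all genes. The libraries also differed in the sex-linked Ddx3y, with 654, 233, 749 and 2 counts, and Xist, with 2420, 4750, 2668 and 8513. Ddx3y was lowest and Xist highest in the Il17rd KO library. The part of sex in the results was not tested.

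Levels per transcript length, as deposited FPKM averaged over the 4 libraries, covered a wide range among the members. Ifitm3, B2m, Ifitm2, H2-D1 and H2-K1 were at 50 FPKM or more, led by Ifitm3 at 167 and B2m at 159. Another 6 lay between 10 and 50, 23 between 1 and 10, and 8 under 1. The group under 1 FPKM held the interferon-stimulated genes Ifit1, Ifit3, Irf7, Oas1a and Xaf1, both immunoproteasome subunits Psmb8 and Psmb9, and the MHC class II gene H2-Ab1. Antiviral effectors thus lay at both ends of the range, with Ifitm3 and Ifitm2 among the most abundant members and Ifit1 and Ifit3 among the least.

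In WT cells with IL-17A the members did not move as 1 block. Ifitm3 and Cxcl10 were higher than in untreated WT, and Ifit1, Ifit3, Ifi27, Isg15, Irf7, Irf9, H2-Ab1 and H2-Eb1 were lower. These 2 and 8 calls are 4.88% and 19.5% of the 41 members, beside 8.97% and 10.7% of all genes tested. Of the 8, Ifit1, Ifit3 and H2-Ab1 were above 1 CPM in exactly 2 libraries. A difference between libraries was built into their selection, so the 19.5% is not read as a result about the members. The median log2 ratio, which here and below has a prior count of 2 added, was -0.22 over the members and 0.00 over all genes. In the Il17rc KO library, against IL-17A WT, 2 members were higher and 5 lower, which is 4.88% and 12.2%, beside 6.22% and 4.84% of all genes. In the Il17rd KO library 3 members were above and 3 below IL-17A WT, 7.32% each way, beside 6.27% and 3.73%. Ifit1 and H2-Ab1 are among the 3 above, so the limit of selection holds here too. That share is not read as a result about the members either. Between the knockouts 0 members were above and 1 was below the Il17rd KO level in Il17rc KO cells, or 2.44% lower, beside 1.49% higher and 2.75% lower among all genes. That 1 member was Ifit1, under the same limit of selection. The shares of members and of all genes are close in several of these comparisons, so the named genes below, and not the counts, carry the description. In all, 13 members were called at least once in the 4 comparisons and 28 never were. The share of all genes called at least once was not computed, so these counts are not read as a result about the members. The IL-17A WT library enters 3 of the 4, so an unusual value in it would appear in all 3.

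**Figure D1:**
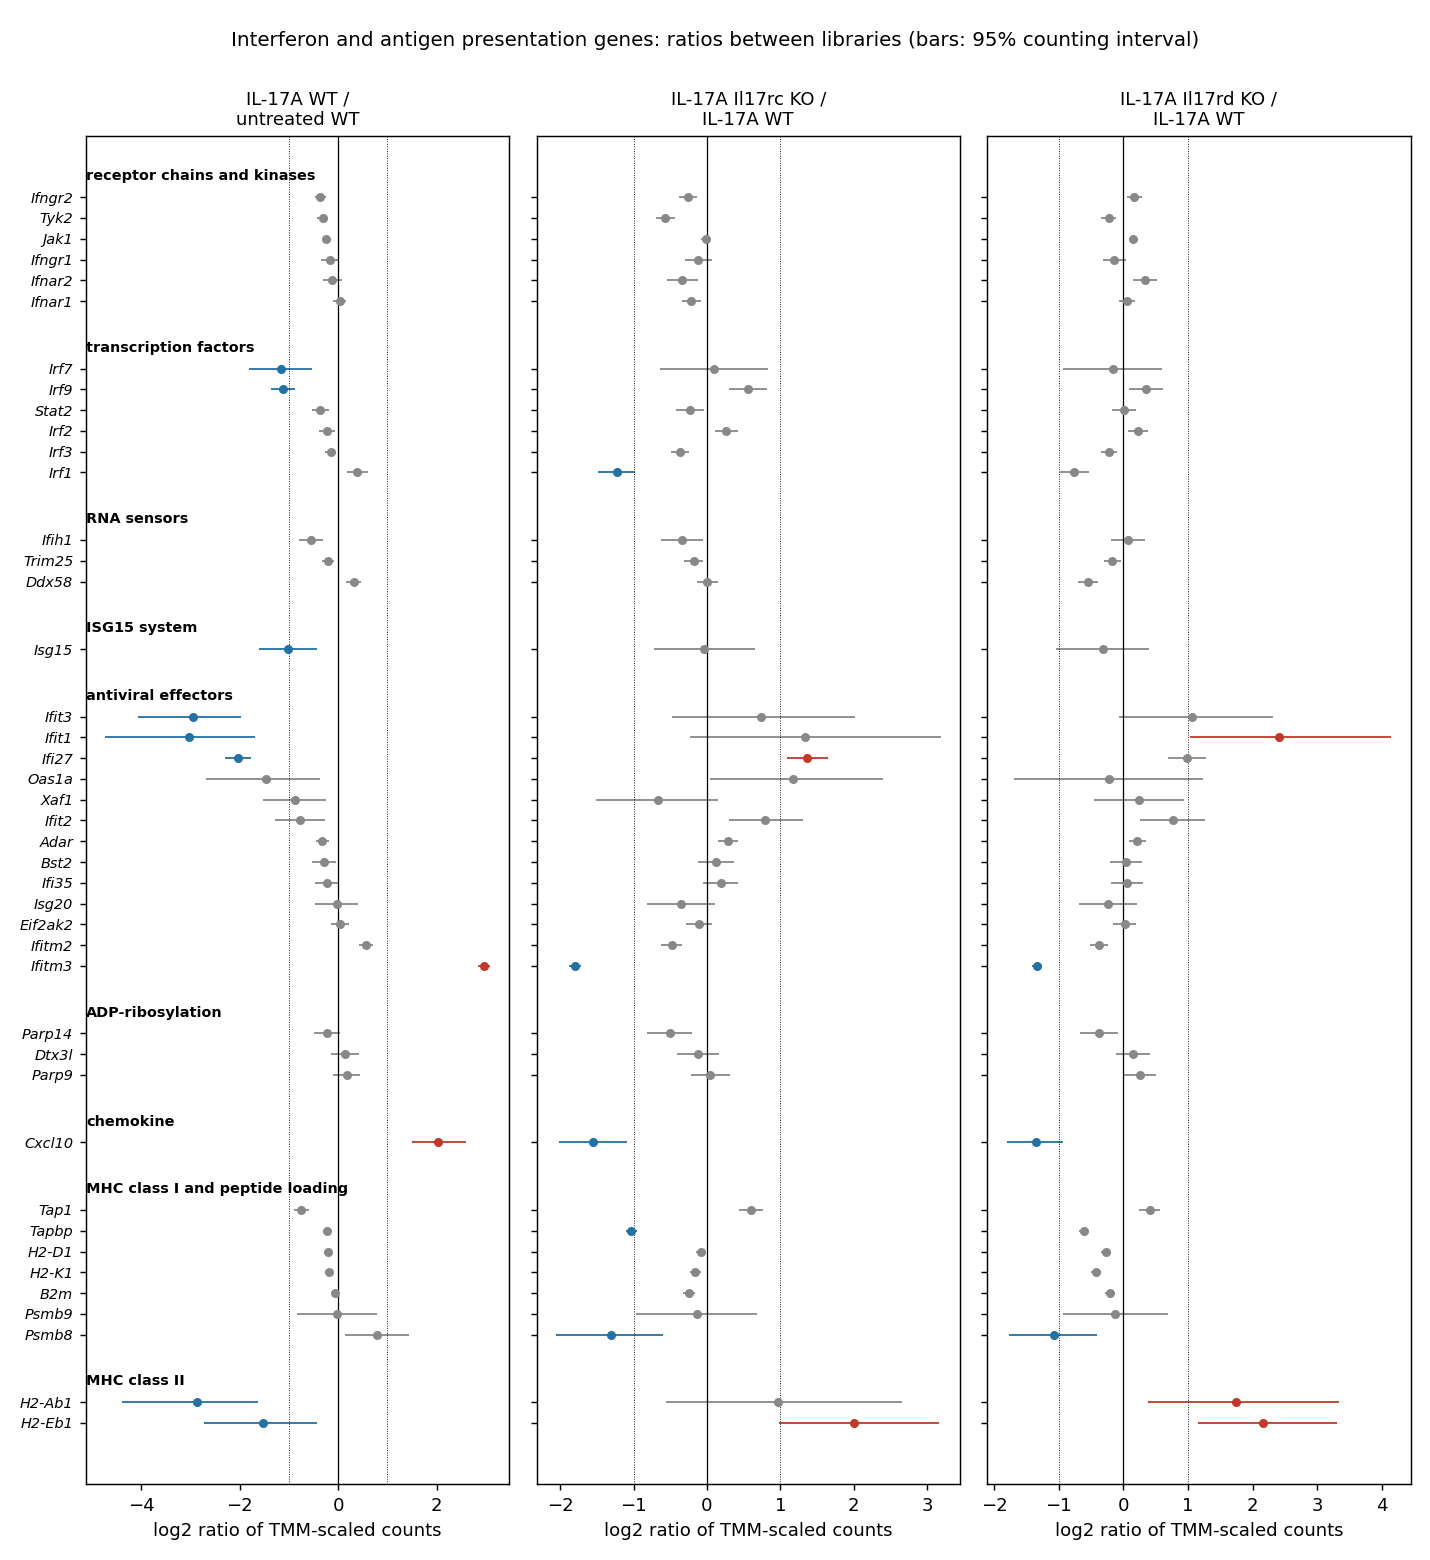
Log2 ratio of TMM-scaled counts, with no prior count, for each of the 42 members (rows, by role) in 3 comparisons (columns), with exact 95% counting intervals as bars; red and blue points are called higher and lower, grey points are not called, and the dotted lines mark 2-fold. Receptor chains and kinases stay within the dotted lines in all 3 panels, while Ifitm3 lies far to the right in the first panel and to the left in the other 2.

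The receptors and kinases were present in all libraries and none of the 6 was called in any of the 4 comparisons. Ifnar1 and Ifnar2 encode the type I interferon receptor and Ifngr1 and Ifngr2 the interferon gamma receptor. Ifnar1 had 1042 counts in untreated WT and 1085 in IL-17A WT, with 960 in Il17rc KO and 1182 in Il17rd KO cells. Ifngr1 had 576, 522, 493 and 497 counts, and Jak1, the most abundant of the 6 per length, had 4131, 3564, 3630 and 4158. Their log2 ratios in IL-17A WT against untreated WT lay between -0.36 and 0.03. The widest difference among them in the 4 comparisons was between the knockouts, where Ifnar2, with 338 against 550 counts, was 1.59-fold lower (1.38 to 1.82) in Il17rc KO cells. Tyk2 was lowest in the Il17rc KO library too, at 856 counts against 1507, 1237 and 1111 in the other libraries, and 1.84-fold (1.69 to 2.01) below untreated WT.

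Among the transcription factors, Irf9 and Irf7 were lower with IL-17A in WT cells. Irf9, the DNA-binding part of the type I interferon complex, had 436 counts in untreated WT and 206 in IL-17A WT, with 311 in Il17rc KO and 276 in Il17rd KO cells. IL-17A WT was 2.16-fold (1.83 to 2.56) below untreated WT, and the knockouts lay between these levels. Irf7, an amplifier of interferon production, had 70, 32, 35 and 30 counts. Here the 3 libraries with IL-17A lay close together, 2.09-fold to 2.50-fold below the untreated one (with library totals Il17rc KO cells were not called), and neither knockout differed from IL-17A WT beyond its interval.

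Irf1, a factor induced by interferon gamma and by NF-kB, had another pattern. It had 322 counts in untreated WT and 431 in IL-17A WT, with 189 in Il17rc KO and 267 in Il17rd KO cells. IL-17A WT was the highest library, by 1.31-fold (1.13 to 1.52) over untreated WT, which is under the size called. Il17rc KO cells were 2.34-fold lower (1.96 to 2.79) than IL-17A WT. The Il17rd KO library was 1.69-fold lower (1.45 to 1.98), which was not called, and between the knockouts the ratio was 1.38 (1.14 to 1.67). Stat2, with 613, 486, 424 and 513 counts, Irf2, with 704, 615, 755 and 753, and Irf3, with 1321, 1215, 962 and 1093, were not called. STAT2 is the partner of IRF9, and IRF3 starts interferon production after viral RNA is sensed.

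None of the 3 sensors of viral RNA was called in the 4 comparisons. Ddx58, which encodes RIG-I, had 609, 773, 796 and 555 counts in the same order of libraries. Ifih1, which encodes MDA5, had 325, 227, 184 and 251, and Trim25, a ubiquitin ligase acting on RIG-I, had 1119, 995, 900 and 928. Ifih1 was highest in untreated WT, 1.46-fold (1.23 to 1.74) above IL-17A WT and 1.85-fold (1.54 to 2.23) above Il17rc KO cells. Ddx58 was lowest in the Il17rd KO library, 1.46-fold (1.31 to 1.63) below IL-17A WT.

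The promoters of the members were searched for the ISRE core, because the members with the largest ratios in both directions are known targets of that element. The windows are those of RefSeq on GRCm38.p6 and run from 250 bases before to 50 after the start. Windows were found for 38 of the 42 members. The core, read as GAAA, any 2 bases and GAAA on either strand, was in the windows of 14 of the 38 members, or 36.8%, beside 3.49% of the 9516 genes of the tables with a window and 3.44% of all 32851 windows. The longer form, which is the core followed by CT, was in 7 members, or 18.4%, beside 0.294% of the genes of the tables and 0.271% of all windows. Called members with the core were Ifitm3 and Cxcl10, which were higher in IL-17A WT, and Ifit1, Ifit3 and Isg15, which were lower, with the limits on the last 3 given beside their values. The search was prompted by these ratios, so this is a description. The members were also listed by name as interferon genes. Motif shares above those of all genes, here and for the second motif, therefore describe the list and not these libraries. Among the 13 tested members with the core the log2 ratios of IL-17A WT to untreated WT ran from -2.71 to 2.95, with a median of -0.22. Among the 24 without it they ran from -1.35 to 0.75, with a median of -0.22 as well. Parp9, Parp14, H2-Ab1 and Ifi27 had no window and are in neither range. Their log2 ratios were 0.17, -0.22, -2.52 and -2.01 in that order, so the widths of the 2 ranges are not compared. A second motif, TTCNNNGAA, the core of the gamma-activated site, was in 13 of the 38 members, or 34.2%, beside 8.07% of the genes of the tables and 8.30% of all windows, and Ifitm3, Irf1 and Psmb8 were the called members that held it. The kappa-B form, GGG, any 5 bases and CC, was in 29 members, or 76.3%, beside 50.8% of all windows and 73.0% of the genes of the tables. A match is a stretch of letters and does not show that a factor binds there.

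The stretches that hold the core are shown for 5 members called with IL-17A, for Oas1a and, as a member that was not called, for Bst2. Each is read 5′ to 3′ on the strand of its gene, with the core in capitals; on the opposite strand the core reads TTTC, 2 bases and TTTC, and overlapping matches form 1 capital run. That of Ifitm3 (chr7:141010714-141010742, minus strand) begins 2 bases after the start site, and the others end before it. They are those of Cxcl10 (chr5:92349043-92349139, minus), Ifit1 (chr19:34640735-34640863, plus), Ifit3 (chr19:34583323-34583466, plus), Oas1a (chr5:120907526-120907595, minus), Isg15 (chr4:156200825-156200946, minus) and Bst2 (chr8:71537537-71537652, minus).
Ifitm3: GAAAAGGAAActtctgaGAAACCGAAAct
Cxcl10: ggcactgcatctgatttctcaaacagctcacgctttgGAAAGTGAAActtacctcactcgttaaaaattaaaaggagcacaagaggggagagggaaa
Ifit1: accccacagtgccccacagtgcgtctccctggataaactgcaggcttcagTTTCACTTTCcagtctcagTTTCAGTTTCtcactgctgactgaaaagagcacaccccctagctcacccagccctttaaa
Ifit3: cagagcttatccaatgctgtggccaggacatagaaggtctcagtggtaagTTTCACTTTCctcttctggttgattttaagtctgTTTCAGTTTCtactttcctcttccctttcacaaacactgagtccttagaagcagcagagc
Oas1a: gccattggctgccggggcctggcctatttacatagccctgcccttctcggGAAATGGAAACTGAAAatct
Isg15: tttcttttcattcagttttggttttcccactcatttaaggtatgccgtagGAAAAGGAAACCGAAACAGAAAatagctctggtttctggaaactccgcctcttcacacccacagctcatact
Bst2: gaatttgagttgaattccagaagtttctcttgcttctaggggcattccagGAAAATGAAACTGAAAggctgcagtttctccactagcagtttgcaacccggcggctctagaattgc

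**Figure D2:**
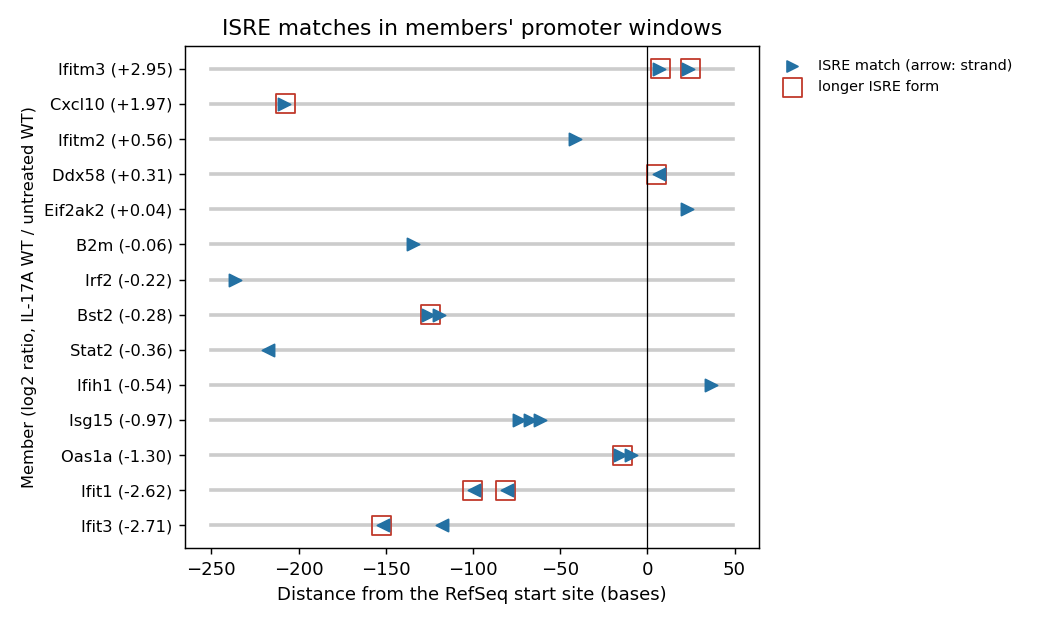
Position of each ISRE core match (triangles, pointing right on the gene's strand and left on the opposite strand) and of the longer form (red squares) in the promoter windows of the 14 members that hold it, by distance from the RefSeq start site in bases. Rows are ordered by the log2 ratio of IL-17A WT to untreated WT, from 2.95 for Ifitm3 at the top to -2.71 for Ifit3 at the bottom, and both ends of that order hold 2 matches.

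Ifitm3, on chromosome 7 (141009586 to 141010770, minus strand, GRCm38), had the largest ratio above untreated WT of any member. Its product is a membrane protein that blocks virus entry through endosomes. It had 620 counts in untreated WT and 4908 in IL-17A WT, with 1449 in Il17rc KO and 2045 in Il17rd KO cells. IL-17A WT stood above the other 3 libraries, 7.75-fold (7.13 to 8.44) over untreated WT. The Il17rc KO library was 3.47-fold (3.27 to 3.68) and the Il17rd KO library 2.52-fold (2.39 to 2.65) below IL-17A WT. Both knockouts remained above untreated WT, by 2.23-fold (2.03 to 2.46) and 3.08-fold (2.81 to 3.37). Ifitm2, a related gene in the same region of chromosome 7, had 688, 1034, 758 and 835 counts. It was 1.47-fold higher (1.34 to 1.62) in IL-17A WT, which was not called. Ifitm2 has near-identical processed pseudogenes and overlaps another gene model on its strand, so its count is uncertain.

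Cxcl10, which encodes a chemokine that draws T cells and is induced by interferons, had the second largest ratio above untreated WT. It had 37 counts in untreated WT and 154 in IL-17A WT, with 54 in Il17rc KO and 63 in Il17rd KO cells. IL-17A WT was again the highest library, 4.08-fold (2.83 to 6.01) above untreated WT. The knockouts were 2.92-fold (2.13 to 4.06) and 2.57-fold (1.90 to 3.50) below it, and their ratio to each other, 1.14 (0.779 to 1.67), did not differ from 1 beyond its interval.

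The interferon-induced proteins with tetratricopeptide repeats, which bind viral RNA, lay in the other direction. Ifit1 had 40 counts in untreated WT and 5 in IL-17A WT, with 13 in Il17rc KO and 28 in Il17rd KO cells. IL-17A WT was 8.17-fold (3.22 to 26.5) below untreated WT, and the Il17rd KO library was 5.34-fold (2.03 to 17.7) above IL-17A WT. Ifit1 was also the 1 member called between the knockouts, where Il17rc KO cells were 2.10-fold lower (1.05 to 4.42), a call that ends when the prior count is added to the ratio. Ifit3 had 75, 10, 17 and 22 counts, 7.66-fold lower (3.94 to 16.6) in IL-17A WT, and neither knockout differed from IL-17A WT beyond its interval. Ifit2 had 90, 54, 96 and 96 counts, and it was 1.70-fold lower (1.20 to 2.43) in IL-17A WT, under the size called. The 3 genes lie within 99.3 kb on chromosome 19, so neighbouring members of 1 family differed in the size of their ratio. Ifit3 has a near-identical copy, Ifit3b, and reads can be assigned to either. Ifit1, Ifit3 and H2-Ab1 were above 1 CPM in exactly 2 libraries, so they entered the tables through the libraries in which they were high, and a difference between libraries was built into their selection.

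Ifi27, an interferon-induced membrane protein gene on chromosome 12, had deeper counts and was lowest in IL-17A WT too. It had 579 counts in untreated WT and 145 in IL-17A WT, with 383 in Il17rc KO and 302 in Il17rd KO cells. The difference in WT cells was 4.08-fold (3.39 to 4.92). The Il17rc KO library was 2.58-fold higher (2.12 to 3.14) than IL-17A WT and called. The Il17rd KO library was 1.98-fold higher (1.62 to 2.44), just under the size called.

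Isg15, a ubiquitin-like modifier, resembled Irf7: it had 75 counts in untreated WT and 38, 38 and 32 in the libraries with IL-17A. It was 2.01-fold lower (1.35 to 3.06) in IL-17A WT, at the edge of the rule and not called with library totals in place of TMM, and has a near-identical processed pseudogene. Oas1a, which senses double-stranded RNA and activates RNase L, had 27, 10, 23 and 9 counts, was under the level filter and has the near-identical copy Oas1g. The remaining effectors were not called in the 4 comparisons. The kinase gene Eif2ak2 had 498, 523, 498 and 556 counts, the RNA-editing enzyme gene Adar 1058, 866, 1083 and 1056, and Bst2, which encodes the virus-tethering protein tetherin, 309, 260, 290 and 280. Ifi35 had 309, 268, 313 and 293 counts and the exonuclease gene Isg20 92, 92, 74 and 82. Gene models on the opposite strand cover 16.8% of the exon bases of Adar and 16.8% of those of Ifi35. With no strand setting given in the labels, reads there cannot be told apart. Xaf1, a pro-apoptotic factor, had 61, 34, 22 and 42, and Il17rc KO cells were 2.90-fold (1.76 to 4.96) below untreated WT. The ADP-ribosylation genes Parp9, Parp14 and Dtx3l were not called either. The products of Parp9 and Dtx3l act as a complex. Their annotated starts lie 681 bases apart on opposite strands, and the genes overlap there, sharing 458 exon bases. Reads of that stretch cannot be told apart either. The log2 ratios of Parp9 and Dtx3l were 0.17 and 0.14 in IL-17A WT against untreated WT.

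**Figure D3:**
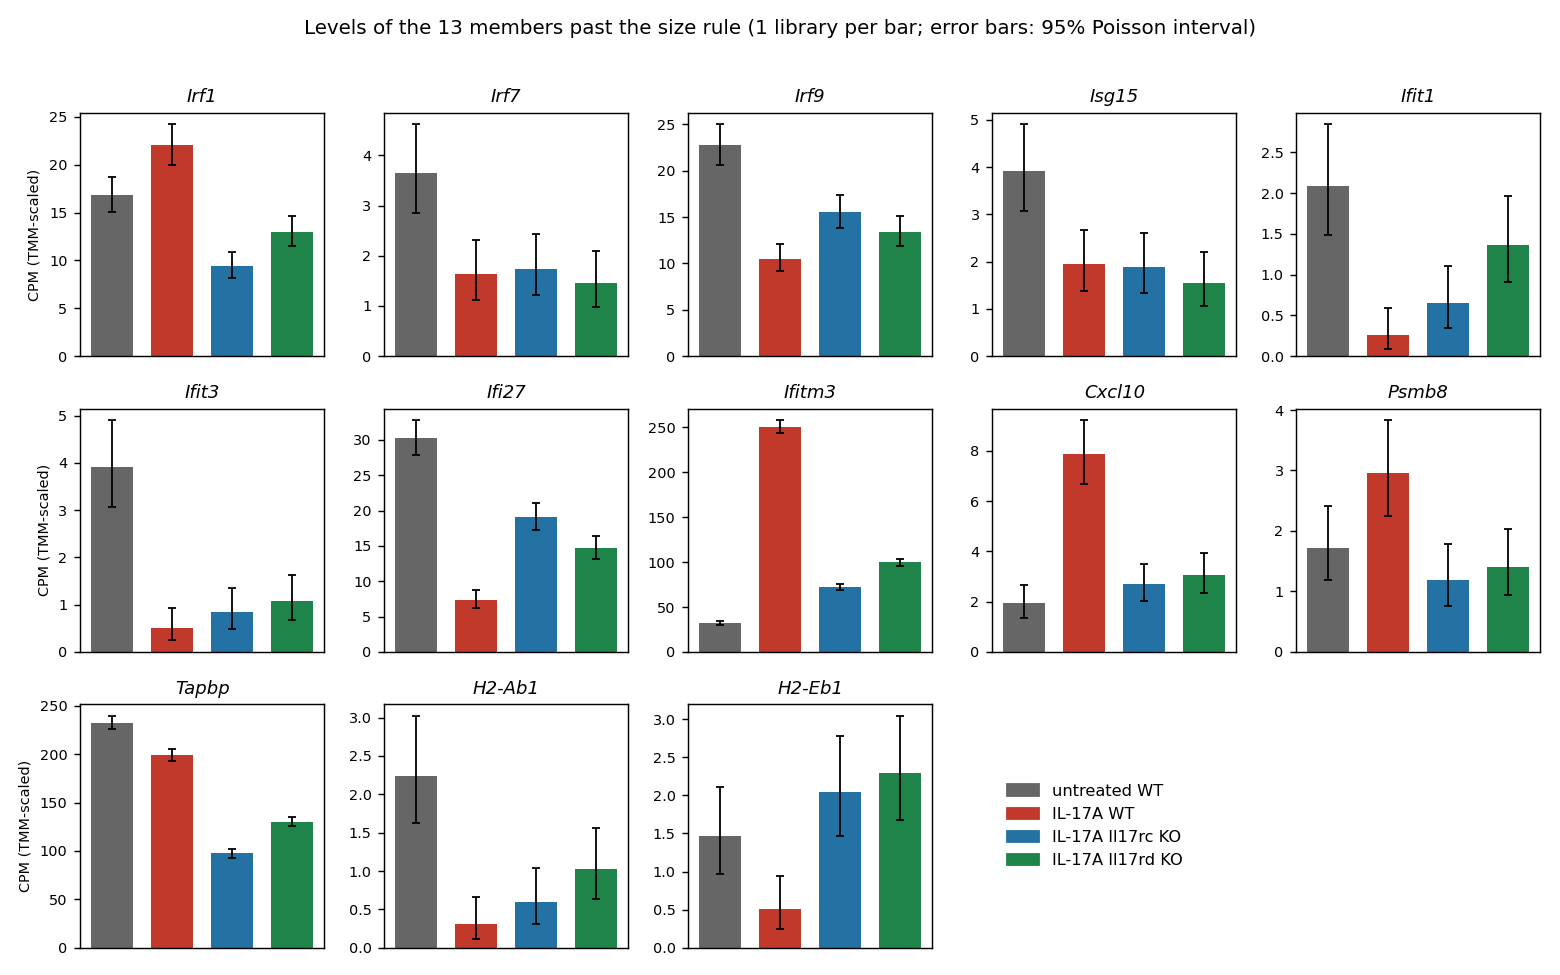
Level in CPM on TMM-scaled library sizes (vertical axes, each from 0) of the 13 members called at least once, with 1 bar per library and exact 95% Poisson intervals as error bars. Ifitm3, Cxcl10, Irf1 and Psmb8 are highest in IL-17A WT, Ifit1, Ifit3, Ifi27, Irf9, H2-Ab1 and H2-Eb1 are lowest there, and Irf7 and Isg15 are low in all 3 libraries with IL-17A.

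The MHC class I molecules themselves differed little. B2m, the invariant light chain, had 2915 counts in untreated WT and 2857 in IL-17A WT, with 2467 in Il17rc KO and 2590 in Il17rd KO cells. The heavy chain genes H2-K1 and H2-D1 had 3332, 2982, 2734 and 2335, and 3675, 3234, 3133 and 2813 counts. All 3 were highest in untreated WT, and none of the 4 comparisons reached 1.5-fold for any of them. The lowest library was Il17rc KO for B2m and Il17rd KO for the heavy chains.

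The genes that cut and load the peptides were less uniform. Tapbp, which encodes tapasin and bridges the peptide transporter to MHC class I, had 4461 counts in untreated WT and 3895 in IL-17A WT, with 1955 in Il17rc KO and 2680 in Il17rd KO cells. Both knockouts were below both WT libraries. The Il17rc KO library was 2.04-fold lower (1.93 to 2.16) than IL-17A WT, a call that ends with library totals in place of TMM, and 2.39-fold lower (2.26 to 2.52) than untreated WT. The Il17rd KO library was 1.53-fold (1.45 to 1.60) and 1.78-fold (1.70 to 1.87) lower, which was not called. An antisense gene model covers 24.9% of the exon bases of Tapbp, and with no strand setting given in the labels, reads of the pair cannot be told apart.

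Psmb8, a catalytic subunit of the immunoproteasome, had 33 counts in untreated WT and 58 in IL-17A WT, with 24 in Il17rc KO and 29 in Il17rd KO cells. It was highest in IL-17A WT, by 1.72-fold (1.10 to 2.73) over untreated WT, and the knockouts were 2.48-fold (1.51 to 4.17) and 2.10-fold (1.32 to 3.40) below IL-17A WT, and with library totals the second of these was not called. An antisense gene model covers 14.7% of the exon bases of Psmb8, and reads of that pair cannot be told apart either. Psmb9, the partner subunit of Psmb8, had 28, 28, 26 and 27 counts. Tap1, a subunit of the peptide transporter, had 875, 533, 829 and 744 counts and was lowest in IL-17A WT, 1.68-fold below untreated WT, under the size called. The annotated starts of Psmb9 and Tap1 lie 211 bases apart on opposite strands, and the genes overlap there, sharing 212 exon bases. So Tap1, Psmb9 and Psmb8, which neighbour each other in the MHC region of chromosome 17, were lowest, level and highest in the IL-17A WT library. In all, 8 members lie in that region, within 1352 kb.

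The MHC class II genes were sparse and lowest in IL-17A WT. H2-Ab1, a class II beta chain gene, had 43 counts in untreated WT and 6 in IL-17A WT, with 12 in Il17rc KO and 21 in Il17rd KO cells. IL-17A WT was 7.32-fold (3.10 to 21.0) below untreated WT, and the Il17rd KO library was 3.33-fold (1.30 to 10.1) above IL-17A WT. H2-Eb1, another beta chain gene, had 28, 10, 41 and 47 counts. Its knockout libraries were 4.00-fold (1.97 to 8.96) and 4.48-fold (2.23 to 9.94) above IL-17A WT, and 1.40-fold (0.845 to 2.35) and 1.57-fold (0.961 to 2.60) above untreated WT, where the intervals include 1.

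MHC class II is mainly a product of professional antigen-presenting cells, so markers of other cells are given beside these values. In bulk libraries, fewer cells of a type and less RNA per cell cannot be told apart. Of 27 immune cell markers 9 had a row, and their summed level was 107 CPM in untreated WT and 55.3 in IL-17A WT, with 36.2 in the Il17rc KO library and 64.6 in the Il17rd KO library. The macrophage gene Lyz2 had 796, 396, 67 and 348 counts and C1qa had 124, 43, 10 and 56. In IL-17A WT 5 of the 9 were called lower than in untreated cells, beside 10.7% of all genes. Higher was 1, beside 8.97% of all genes, the lipopolysaccharide co-receptor gene Cd14 with 30, 84, 45 and 51 counts. In Il17rc KO cells 7 of the 9 were called below IL-17A WT, beside 4.84% of all genes. The immune sum was therefore lowest in the Il17rc KO library, while H2-Eb1 was lowest in IL-17A WT. Of 16 fibroblast markers 13 had a row, at 102, 27.1, 61.4 and 84.2 CPM, and the spinous and granular layer markers, 15 of 15, were at 7084, 862, 2868 and 3211 CPM. Both of these sums were lowest in IL-17A WT, as were Ifit1, Ifit3, Ifi27, Irf9, H2-Ab1 and H2-Eb1 of the 8 lower members, while Irf7 and Isg15 were lowest in the Il17rd KO library. All 8 melanocyte markers had a row, at 2489, 1640, 2088 and 2260 CPM. Of 8 endothelial markers 4 had a row, at 22.6, 118, 23.2 and 37.5 CPM, and that sum was highest in IL-17A WT, where most of it was Flt1. The part of these cells and of differentiation in the members' values was not tested.

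**Figure D4:**
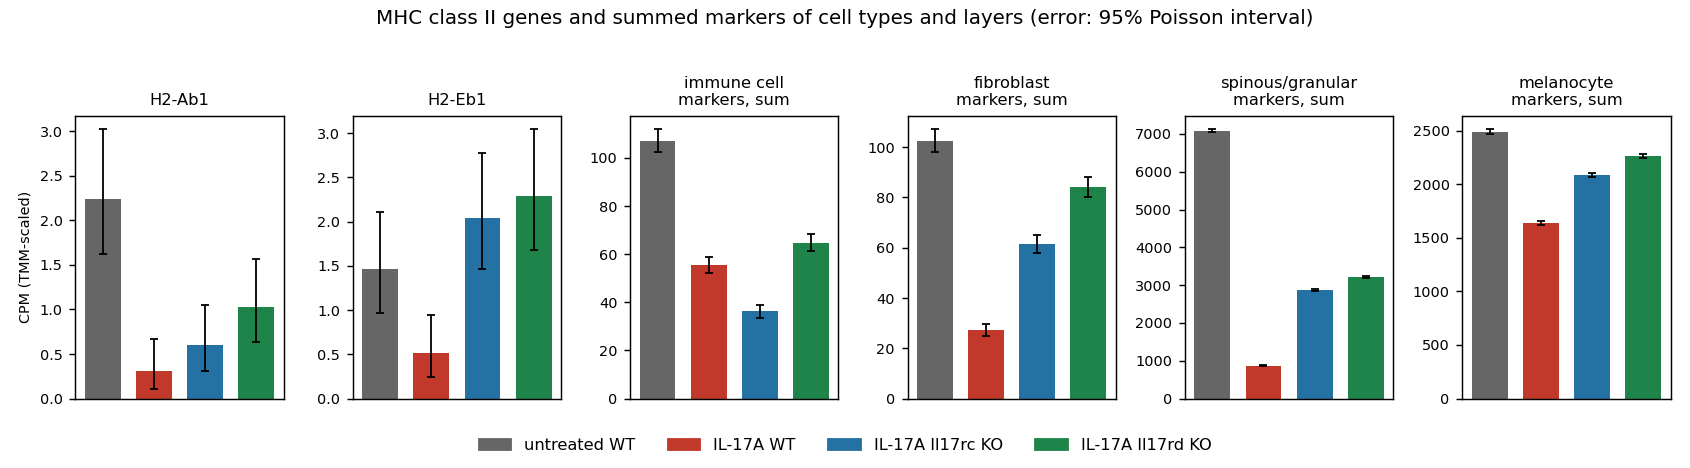
Level in CPM on TMM-scaled library sizes (vertical axes, each from 0) of the MHC class II genes H2-Ab1 and H2-Eb1 and of the summed markers of 3 cell types and of the upper epidermal layers, 1 bar per library, with exact 95% Poisson intervals. The fibroblast, spinous and granular, and melanocyte sums are lowest in IL-17A WT, as H2-Ab1 and H2-Eb1 are, while the immune cell sum is lowest in the Il17rc KO library at 36.2 CPM.

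Other genes of the same pathways were taken from 3 lists. Of 85 further interferon-stimulated genes 36 were tested. In WT cells 6 of them were above and 4 below the untreated level with IL-17A, beside 8.97% and 10.7% of all genes, and the median log2 ratio was -0.09. Plscr1, a phospholipid scramblase gene, had 106 counts in untreated WT and 801 in IL-17A WT, with 141 in Il17rc KO and 398 in Il17rd KO cells, which is the order of Ifitm3. Mlkl, the effector of necroptosis, had 41, 231, 84 and 103. Igtp and Irgm2, interferon-inducible GTPase genes, were among the lower ones, with 170, 53, 107 and 176 and with 93, 27, 57 and 63 counts. In Il17rc KO cells 1 of the 36 was above and 3 were below IL-17A WT, with a median of -0.17, beside 6.22% and 4.84% of all genes. In Il17rd KO cells 2 were above and 3 below, with a median of 0.02, beside 6.27% and 3.73%. Between the knockouts 0 were above and 3 below the Il17rd KO level in Il17rc KO cells, Plscr1 among them, beside 1.49% and 2.75% of all genes.

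Of 41 further pathway and sensing genes 26 were tested, with 3 higher and 3 lower in IL-17A WT, near the shares of all genes, 8.97% and 10.7%. Tmem173, which encodes STING, had 33, 131, 62 and 79 counts and Tlr3, a receptor for double-stranded RNA, 32, 98, 69 and 70. Mb21d1, which encodes the DNA sensor cGAS, had 54, 114, 202 and 161. Nod1 and the adaptor gene Ticam1 were lower, with 202, 41, 77 and 117 and with 810, 306, 461 and 514 counts. In Il17rc KO cells 0 of the list were above and 2 below IL-17A WT, namely Ikbke, a kinase of the interferon response, and Tmem173. In Il17rd KO cells 1 was above, Nod1, and 0 below. The shares of all genes were 6.22% and 4.84% for Il17rc KO cells and 6.27% and 3.73% for Il17rd KO cells.

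Of 41 further antigen presentation genes 25 were tested, with 1 higher and 5 lower in IL-17A WT, beside 8.97% and 10.7% of all genes. Nlrc5, the transactivator of MHC class I genes, had 64 counts in untreated WT and 19 in IL-17A WT, with 76 in Il17rc KO and 70 in Il17rd KO cells. Cd274, which encodes the checkpoint ligand PD-L1, had 95, 37, 77 and 87, and H2-T23, a non-classical class I gene, 1754, 751, 816 and 1045. Nlrc5 and Cd274 were thus low in IL-17A WT alone, whereas H2-T23 was low in the 3 libraries with IL-17A. Cd80, a costimulatory ligand gene, was the higher one, with 19, 60, 81 and 55 counts. In Il17rc KO cells 2 of the list were above and 2 below IL-17A WT, beside 6.22% and 4.84% of all genes, and in Il17rd KO cells 3 were above and 0 below, beside 6.27% and 3.73%. The protease gene Ctss, which is abundant in macrophages and followed the order of Lyz2, had 239, 106, 12 and 60 counts.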

How the data were processed

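The submitters' processing notes name Trim Galore 0.4.4, HISAT2, featureCounts, Subread, edgeR and the build mm10, without roles or settings. The deposited count values are whole reads per gene, and the FPKM values deposited by the authors, used for levels per length, imply library sizes of 1.02, 1.05 and 1.07 relative to untreated WT (for IL-17A WT and the Il17rc and Il17rd knockouts), the same as library totals scaled by TMM.

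TMM factors (edgeR 4.0.16) were computed over the 4 libraries. Ratios carry exact 95% conditional binomial (Clopper-Pearson) intervals. These are computed from the counts of 2 libraries alone, so they cover counting error only. No molecular identifiers are named, and repeated copies of a molecule were not removed here. Calls need a ratio of 2-fold and an interval without 1, among all genes averaging 1 CPM or more. A prior count of 2 enters the log2 ratios only. With 1 library per group there was no test between conditions.

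Members and lists were chosen with earlier results of these data known. Named are all members, and in other lists up to 4 called genes each way by size; the text gives some of these. Single markers of cell types, Ddx3y and Xist were named after their values were seen. Near-identical copies match at 95% identity over at least 50% of either transcript (BLAST+ 2.17.0, GENCODE M21). Alternatives were DESeq2 1.42.0 size factors, library totals, upper-quartile factors, other level filters, fold sizes and prior counts, FPKM ratios, and fewer members.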

Additional observations from a re-analysis of the deposited data

How the results depend on the processing

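No paired analysis was possible because each group has 1 library, and for the same reason no library could be left out within a group. Counts of members called are given for IL-17A WT against untreated WT, Il17rc KO and Il17rd KO against IL-17A WT, Il17rc KO against Il17rd KO, and Il17rc KO and Il17rd KO against untreated WT, in that order; they were 10, 7, 6, 1, 8 and 6. The share of all genes was not computed for the last 2 comparisons. Their 8 and 6 calls are therefore not read as a result about the members. A mean of at least 5 CPM left 29 members and 3, 4, 1, 0, 2 and 2 calls, and a 3-fold size gave 6, 2, 3, 0, 3 and 2. A 1.5-fold size gave 10 calls in the third, 3 in the fourth, 15 in the fifth and 12 in the last. Without the level filter the fourth had 2, with Oas1a added, and without members that have a near-identical copy the fifth had 4. Tapbp and Xaf1 were among those left out, though their copies elsewhere match only 3.28% and 4.74% of the member's transcript. With the fold taken from the log2 ratio with its prior count, chosen after seeing the data, the fourth had 0, and Isg15 was lost from the first. Library totals alone ended the calls of Isg15 with IL-17A, of Tapbp in the Il17rc KO library and of Psmb8 in the Il17rd KO library, where Ifi27 and Ifit3 were called instead. They ended those of Irf7 and Isg15 in Il17rc KO and of Ifi27 in Il17rd KO against untreated WT, and moved the median log2 ratio of Il17rd KO against untreated WT from -0.27 to -0.16, a shift that all genes share. Upper-quartile factors also ended the call of Isg15. Among members called with TMM and also under another scaling, level filter, fold size or prior count rule, 0 changed direction. These settings reuse the same counts, so this could hardly have come out otherwise and is no check of the calls. The longer ISRE form was in 7 promoters against 14 for the core. Members under about 50 counts have intervals several-fold wide, so smaller differences in them were not detectable at this depth.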
